A study of Homo sapiens with 2 samples.

Results

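The 60 genes described here act in mitosis: CDK1 with its cyclins, phosphatases and inhibitory kinase, the other mitotic kinases, the spindle checkpoint, the kinetochore, the spindle, and the anaphase-promoting complex or cyclosome (APC/C). They were chosen by name from 58174 genes listed with TPM values, and CENPH was put among them because its level was known to be higher, so its value is a description. Of the 60 genes, 59 averaged at least 1 TPM and were compared. CENPK, which encodes an inner kinetochore protein, was the one left out, at 0.553 TPM in the POH1 siRNA library and 1.43 TPM in the control siRNA library.

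The data were RNA sequencing values of PC3, a cell line derived from human prostate cancer and grown in culture. One library came from PC3 cells given an siRNA against POH1, and 1 came from PC3 cells given a control siRNA; the sources used here give no siRNA sequence, dose or time. POH1, whose gene symbol is PSMD14, is the deubiquitinase of the regulatory particle of the proteasome. With 1 library per group there was no replicate error and no test, any batch cannot be told apart from the siRNA, and what follows compares only this pair of libraries. The unit is TPM, a level per transcript length scaled to a fixed total, which keeps no read depth; the depth behind each value is therefore unknown. In cultured cells sequenced in bulk, fewer cells in mitosis and less RNA per cell cannot be told apart.

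PSMD14 itself was at 35.1 TPM in the POH1 siRNA library, against 50.9 TPM in the control siRNA library, which leaves 69.0% of the control level. This is 1.45-fold lower (log2 difference -0.52), inside the 1.5-fold limit used below to call a gene lower. Keratin genes and other genes known from PC3 were high in both libraries, with KRT8 at 556 TPM and CD44 at 531 TPM in the POH1 siRNA library, and at 517 and 486 TPM in the control siRNA library. KLK3, which encodes prostate-specific antigen, was listed at 0 in both libraries. Of the 9 marker genes of fibroblasts, leukocytes and endothelium, CD3E was listed at 0 in both libraries. COL1A1, at 47.8 TPM with POH1 siRNA and 30.9 TPM with control siRNA, and CD68, at 68.5 TPM with POH1 siRNA and 44.2 TPM with control siRNA, were the 2 of these markers above 5 TPM. Any part of other cell types in the results was not tested.

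Entry into mitosis is driven by CDK1 bound to cyclin A or B. WEE1 holds the kinase inactive and the CDC25 phosphatases release it. At the kinetochore, an inner layer built on the centromeric histone CENPA carries an outer layer that binds microtubules, and the checkpoint proteins gathered there hold back the APC/C until all chromosomes are attached. The APC/C is a ubiquitin ligase that then marks securin and cyclin B for destruction by the proteasome, which lets separase cut cohesin. Many of these genes are transcribed mainly in G2 and mitosis, through promoters that carry the cell cycle homology region, with the letters TTTGAA or TTTAAA, and CCAAT boxes bound by NF-Y. The subunits of the APC/C are made more evenly through the cycle.

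The promoters of 4 genes are printed because they set side by side members with different outcomes: CCNB2, which was lower, CCNB1 and PLK1, which lay within 1.5-fold, and CENPO, which was higher. Each is the 250 bases before the RefSeq transcription start (build GRCh38.p14, plus strand of chr15:59104896-59105145, chr5:69166900-69167149, chr16:23678639-23678888 and chr2:24793175-24793424). Capitals mark the letters TTTGAA or TTTAAA, and also the letters CCAAT, all searched on both strands.
CCNB2: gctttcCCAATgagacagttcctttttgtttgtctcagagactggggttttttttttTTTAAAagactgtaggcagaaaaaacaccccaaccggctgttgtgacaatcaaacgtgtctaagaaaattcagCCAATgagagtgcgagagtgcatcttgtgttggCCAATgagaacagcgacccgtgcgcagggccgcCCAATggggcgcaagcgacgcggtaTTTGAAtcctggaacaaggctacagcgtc
CCNB1: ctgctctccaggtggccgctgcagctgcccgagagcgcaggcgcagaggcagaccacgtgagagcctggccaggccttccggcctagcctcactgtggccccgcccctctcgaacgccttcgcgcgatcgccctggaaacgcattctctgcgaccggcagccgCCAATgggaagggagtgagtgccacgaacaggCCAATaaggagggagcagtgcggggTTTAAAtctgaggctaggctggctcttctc
PLK1: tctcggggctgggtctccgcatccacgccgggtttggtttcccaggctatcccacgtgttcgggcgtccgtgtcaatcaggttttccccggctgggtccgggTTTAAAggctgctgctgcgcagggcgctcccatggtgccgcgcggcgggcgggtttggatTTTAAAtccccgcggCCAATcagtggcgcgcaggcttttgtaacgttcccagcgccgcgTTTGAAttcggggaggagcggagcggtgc
CENPO: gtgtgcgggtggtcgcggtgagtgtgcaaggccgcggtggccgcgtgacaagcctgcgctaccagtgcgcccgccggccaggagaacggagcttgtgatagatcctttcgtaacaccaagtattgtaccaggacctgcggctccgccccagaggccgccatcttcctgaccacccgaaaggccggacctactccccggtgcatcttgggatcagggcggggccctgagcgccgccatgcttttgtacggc
TTTGAA starts 29 bases before the transcription start in CCNB2 and in PLK1, and TTTAAA starts 30 bases before it in CCNB1. CCNB2 has 4 CCAAT matches, CCNB1 has 2 and PLK1 has 1. The 250 bases of CENPO hold none of these letters, which says only that they are not in these bases; a TTTGAA lies in the 50 bases after its start, so CENPO counts as holding it in the longer windows described further on.

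The difference of a gene is log2(TPM + 1) in the POH1 siRNA library minus log2(TPM + 1) in the control siRNA library, and a gene is called higher or lower where this difference reaches 1.5-fold, a log2 size of 0.585. Of the 59 genes compared, 2 were higher, 12 were lower and 45 lay within 1.5-fold. Over all 15008 genes that averaged at least 1 TPM, 10.2% were higher and 8.88% were lower, and among the 59 genes 3.39% were higher and 20.3% were lower. Without CENPH, which was listed for its level, 1 of 58 genes was higher (1.72%) and 12 were lower (20.7%). The median log2 difference of the 59 genes was -0.0040, against 0.12 for all genes, and 42 of the 59 genes (71.2%) lay below the median of all genes. The differences of single genes ran from -1.16 to 2.19. At 2-fold, 2 of the 59 genes, CENPH among them, were higher and 3 were lower, where 2.15% of all genes were higher and 2.93% were lower. Summed over the 60 genes, the POH1 siRNA library held 2348 TPM and the control siRNA library 2548 TPM.

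**Figure D1:**
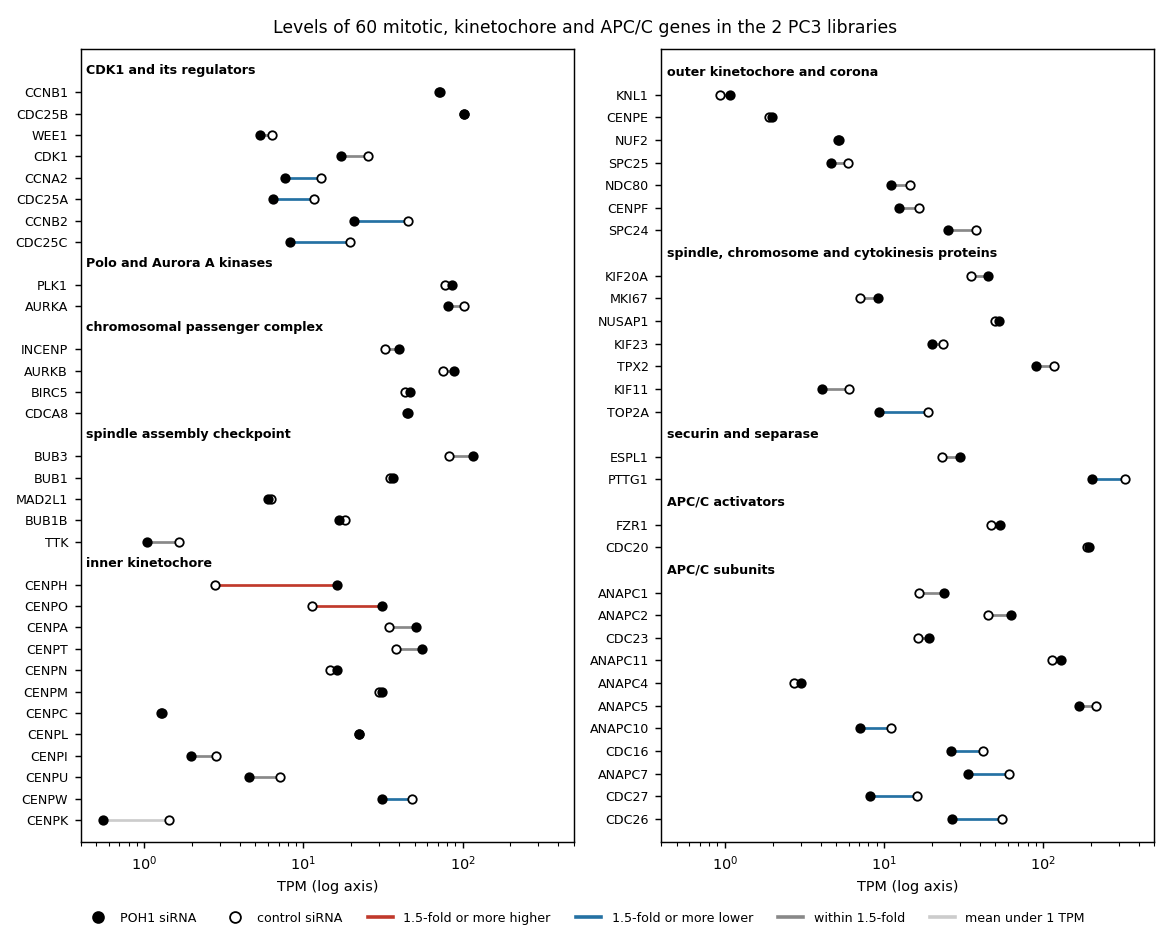
Levels of the 60 genes in TPM on a log axis, by role, with filled circles for the POH1 siRNA library and open circles for the control siRNA library; red lines mark the 2 genes at least 1.5-fold higher, blue lines the 12 at least 1.5-fold lower, grey lines the 45 within 1.5-fold and the pale line CENPK. The 2 circles of a gene lie close together for most genes, and the widest gap is that of CENPH, at 16.3 TPM with POH1 siRNA and 2.80 TPM with control siRNA.

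CDK1 and its regulators held 4 of the 12 lower genes, 50% of the 8 compared, where 8.88% of all genes were lower. CDC25C, the phosphatase that activates CDK1 at the onset of mitosis, was at 8.24 TPM with POH1 siRNA and 19.6 TPM with control siRNA, 2.38-fold lower (log2 difference -1.16). CCNB2, which encodes cyclin B2, was at 20.9 TPM with POH1 siRNA and 45.8 TPM with control siRNA, 2.19-fold lower (-1.10). CDC25A, a phosphatase that acts on CDK2 as well as CDK1, was at 6.48 TPM with POH1 siRNA and 11.7 TPM with control siRNA. CCNA2, which encodes cyclin A2, was at 7.69 TPM with POH1 siRNA and 12.9 TPM with control siRNA, 1.68-fold lower. CCNB1 and CDC25B lay close to their controls. CCNB1, the other mitotic B-type cyclin, was at 72.0 TPM with POH1 siRNA and 71.1 TPM with control siRNA, so CCNB2 amounted to 0.290 of the CCNB1 level with POH1 siRNA and 0.643 of it with control siRNA. CDC25B, the third CDC25 phosphatase, was at 102 TPM with POH1 siRNA and 103 TPM with control siRNA. The kinase gene CDK1 itself lay just inside the 1.5-fold limit, at 17.3 TPM with POH1 siRNA and 25.6 TPM with control siRNA (-0.53), and WEE1 was at 5.38 TPM with POH1 siRNA and 6.34 TPM with control siRNA. The median of the 8 genes was -0.61, and all 8 lay below the median of all genes. After adjustment for GC content, described further on, 3 of the 8 were lower, where 5.2% of all genes were. The median of the 8 genes was then -0.24, against 0.15 for all genes.

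None of the other kinase, passenger or checkpoint genes passed 1.5-fold. PLK1, the Polo kinase needed for centrosome maturation and mitotic exit, was at 85.7 TPM with POH1 siRNA and 78.0 TPM with control siRNA. AURKA, the centrosome and spindle kinase Aurora A, was at 81.0 TPM with POH1 siRNA and 102.5 TPM with control siRNA. The 4 genes of the chromosomal passenger complex, which corrects faulty attachments, differed by 0.016 to 0.27 on the log2 scale. Its kinase AURKB was at 88.2 TPM with POH1 siRNA and 74.9 TPM with control siRNA, its scaffold INCENP at 39.7 TPM with POH1 siRNA and 32.7 TPM with control siRNA, and BIRC5 (survivin) at 46.7 TPM with POH1 siRNA and 43.8 TPM with control siRNA. CDCA8 (borealin) was at 45.3 TPM with POH1 siRNA and 44.8 TPM with control siRNA. Among 5 checkpoint genes, BUB3 was farthest above its control, at 116 TPM with POH1 siRNA and 82.8 TPM with control siRNA (0.48). BUB1, BUB1B and MAD2L1 lay between -0.13 and 0.060. TTK, the kinase MPS1 that starts the checkpoint signal, was low in both libraries, at 1.05 TPM with POH1 siRNA and 1.67 TPM with control siRNA.

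The inner kinetochore held both higher genes, of which CENPH was listed for its level. They were 18.2% of the 11 genes compared, where 10.2% of all genes were higher. That share is partly fixed by the choice of CENPH, so it is no result about the group. Without CENPH, CENPO was the only higher gene of the inner kinetochore. CENPH (ENSG00000153044, chromosome 5), a subunit of the constitutive centromere-associated network that stays on centromeres through the cycle, was at 16.3 TPM with POH1 siRNA and 2.80 TPM with control siRNA, 5.83-fold higher (2.19). It ranked 24 of 15008 genes from the highest difference. CENPO (ENSG00000138092, chromosome 2), a subunit of another part of the same network, was at 31.1 TPM with POH1 siRNA and 11.4 TPM with control siRNA, 2.73-fold higher (1.37), and ranked 124. CENPW, the histone-fold partner of CENPT, was at 31.1 TPM with POH1 siRNA and 48.0 TPM with control siRNA, 1.54-fold lower (-0.61). CENPA and CENPT lay just inside the limit, CENPA at 51.1 TPM with POH1 siRNA and 34.6 TPM with control siRNA (0.55) and CENPT at 55.6 TPM with POH1 siRNA and 38.2 TPM with control siRNA (0.53). CENPU lay just inside it on the other side, at 4.54 TPM with POH1 siRNA and 7.13 TPM with control siRNA (-0.55). As a ratio of TPM, CENPU was 1.57-fold lower. CENPM, CENPN and CENPL, at 14.7 to 31.2 TPM in the 2 libraries, differed by -0.0040 to 0.14. CENPC, which bridges the inner and outer kinetochore, was at 1.29 TPM with POH1 siRNA and 1.28 TPM with control siRNA. CENPI was at 1.97 TPM with POH1 siRNA and 2.82 TPM with control siRNA. The median of the 11 genes compared was 0.051.

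In 3 kinetochore complexes 1 subunit was higher by 1.5-fold and the other subunits compared were not. CENPK and CENPQ averaged under 1 TPM and were not compared. The division by complex was made after the values were seen and includes genes that are not among the 60. In other complexes no subunit passed 1.5-fold, as in the chromosomal passenger complex, in CENPL with CENPN, in the NDC80 complex and in condensin II. CENPH works as 1 unit with CENPI, CENPK and CENPM, and neither CENPI nor CENPM was higher by 1.5-fold. The level of CENPH, which was chosen for its value, was 0.522 times that of CENPM with POH1 siRNA and 0.0929 times with control siRNA. CENPO works with CENPP, CENPQ, CENPU and CENPR, the product of ITGB3BP. CENPP was at 2.25 TPM with POH1 siRNA and 2.16 TPM with control siRNA. CENPQ, with a mean under 1 TPM, was at 0.878 TPM with POH1 siRNA and 0.522 TPM with control siRNA. ITGB3BP was lower, at 3.34 TPM with POH1 siRNA and 6.82 TPM with control siRNA (-0.85). The level of CENPO was 6.84 times that of CENPU with POH1 siRNA and 1.60 times with control siRNA. In the MIS12 complex, which joins the inner to the outer kinetochore, DSN1 was higher, at 22.6 TPM with POH1 siRNA and 11.3 TPM with control siRNA (0.95), while MIS12, NSL1 and PMF1 differed by -0.15 to 0.25.

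**Figure D2:**
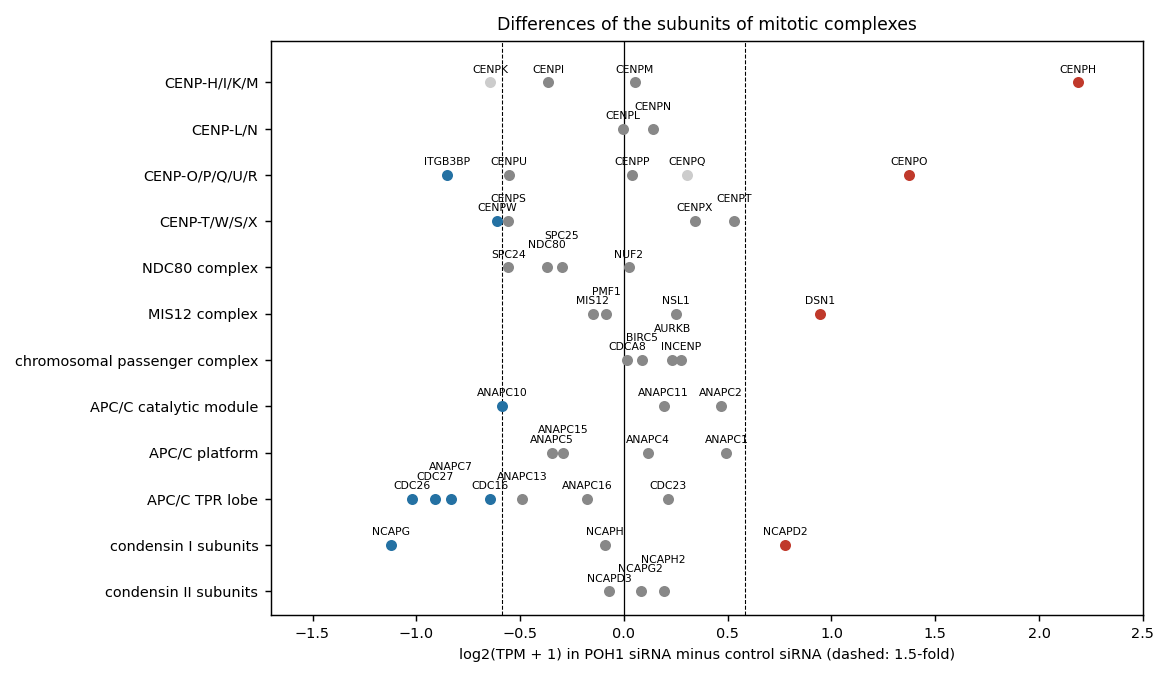
Log2 difference of each subunit, POH1 siRNA minus control siRNA, with 1 row per complex and 1 labelled point per gene; dashed lines mark 1.5-fold, red and blue points are higher and lower by 1.5-fold, grey points lie within it and pale points had a mean under 1 TPM. CENPH at 2.19, CENPO at 1.37 and DSN1 at 0.95 stand to the right of the other subunits of their complexes, and 4 of the 7 TPR lobe genes lie beyond 1.5-fold on the left. Of all genes, 8.88% were lower by 1.5-fold.

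CENPH shares no exon sequence with, and overlaps on the other strand, no gene of 1 TPM or more in the GENCODE annotation used. Its nearest protein-coding neighbours in RefSeq's order are CCNB1 on one side and KGD4 (MRPS36) on the other, and KGD4 was at 7.69 TPM with POH1 siRNA and 7.91 TPM with control siRNA. The exons of CENPO overlap those of ADCY3 on the opposite strand over 1488 bases, and ADCY3, an adenylyl cyclase gene, was at 51.2 TPM with POH1 siRNA and 25.5 TPM with control siRNA (0.98). They also overlap PTRHD1, which was at 76.7 TPM with POH1 siRNA and 65.9 TPM with control siRNA. The sources used here do not say whether counting used strand, so reads of CENPO and ADCY3 cannot be told apart and the value of CENPO is uncertain.

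The outer kinetochore and its corona held no gene past 1.5-fold, and all 7 genes lay below the median of all genes (group median -0.30). After adjustment for GC content, described further on, the median of the 7 genes was 0.097, against 0.15 for all genes. SPC24 was then the 1 lower gene of the group. Without adjustment SPC24, a subunit of the NDC80 complex that holds microtubules, was nearest to the limit. It was at 25.3 TPM with POH1 siRNA and 37.7 TPM with control siRNA (-0.56). Its partners NDC80 and SPC25 were at 11.1 and 4.64 TPM with POH1 siRNA, and at 14.6 and 5.93 TPM with control siRNA. NUF2, the fourth subunit, was at 5.23 TPM with POH1 siRNA and 5.14 TPM with control siRNA. CENPF, a large corona protein that peaks in G2 and mitosis, was at 12.4 TPM with POH1 siRNA and 16.6 TPM with control siRNA (-0.40). The kinesin gene CENPE was at 1.97 TPM with POH1 siRNA and 1.91 TPM with control siRNA, and KNL1, the scaffold for the BUB proteins, at 1.07 TPM with POH1 siRNA and 0.939 TPM with control siRNA.

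Among 7 genes for the spindle, chromosomes and cytokinesis, TOP2A alone passed 1.5-fold. It encodes topoisomerase II alpha, which untangles sister chromatids, and was at 9.31 TPM with POH1 siRNA and 18.9 TPM with control siRNA, 2.03-fold lower (-0.95). MKI67, the proliferation marker Ki-67 that coats mitotic chromosomes, stood on the other side of its control, at 9.20 TPM with POH1 siRNA and 7.08 TPM with control siRNA (0.34). The kinesin gene KIF11, which pushes spindle poles apart, was at 4.08 TPM with POH1 siRNA and 6.01 TPM with control siRNA (-0.46). KIF20A, KIF23, NUSAP1 and TPX2 differed by -0.35 to 0.34. PTTG1, which encodes securin and was the most abundant of the 60 messages in both libraries, was at 202 TPM with POH1 siRNA and 326 TPM with control siRNA (-0.69). ESPL1, which encodes the separase that securin inhibits, was at 30.1 TPM with POH1 siRNA and 23.1 TPM with control siRNA (0.37). The level of PTTG1 message was thus 6.70 times that of ESPL1 message with POH1 siRNA and 14.1 times with control siRNA. These are RNA levels and give no measure of the 2 proteins.

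The APC/C held 5 of the 12 lower genes, 45.5% of its 11 subunit genes, where 8.88% of all genes were lower. None of the 11 was higher by 1.5-fold, where 10.2% of all genes were. After adjustment for GC content, described further on, 2 of the 11 were lower (CDC26 and ANAPC7) and 1 was higher (ANAPC1). Of all genes, 5.2% were then lower and 12.6% were higher. CDC26, a small subunit that stabilises CDC16, was at 26.9 TPM with POH1 siRNA and 55.5 TPM with control siRNA, 2.07-fold lower (-1.02). CDC27 was at 8.14 TPM with POH1 siRNA and 16.2 TPM with control siRNA, 1.99-fold lower (-0.91). ANAPC7 was at 33.8 TPM with POH1 siRNA and 60.9 TPM with control siRNA (-0.83), and CDC16 was at 26.4 TPM with POH1 siRNA and 41.8 TPM with control siRNA (-0.64). CDC27, CDC16 and ANAPC7 encode proteins with tetratricopeptide repeats (TPR) that form the lobe to which activators bind. ANAPC10, which helps the activator recognise substrates, was at 7.04 TPM with POH1 siRNA and 11.1 TPM with control siRNA, a difference (-0.59) just past the limit. The fourth repeat protein of that lobe, CDC23, was not lower, at 19.1 TPM with POH1 siRNA and 16.3 TPM with control siRNA (0.21). ANAPC13 and ANAPC16, small proteins of the lobe that are not among the 60, differed by -0.49 and -0.18. Summed over the 7 genes of the TPR lobe, the POH1 siRNA library held 143 TPM and the control siRNA library 226 TPM.

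Of the catalytic and platform subunits of the APC/C, ANAPC10, given above with the catalytic module, was the one past 1.5-fold. ANAPC2, the cullin, was at 62.8 TPM with POH1 siRNA and 45.2 TPM with control siRNA (0.47), and ANAPC11, the RING subunit that binds the conjugating enzyme, was at 129.7 TPM with POH1 siRNA and 113 TPM with control siRNA (0.19). ANAPC1, the largest platform subunit, was at 24.0 TPM with POH1 siRNA and 16.7 TPM with control siRNA (0.49). It has 6 named pseudogenes, which summed to 20.5 TPM with POH1 siRNA and 16.7 TPM with control siRNA, so its value is uncertain. ANAPC5 was at 167 TPM with POH1 siRNA and 213 TPM with control siRNA (-0.35). ANAPC15, a platform subunit that is not among the 60, was at 54.7 TPM with POH1 siRNA and 67.3 TPM with control siRNA (-0.29), and ANAPC4 was at 3.02 TPM with POH1 siRNA and 2.71 TPM with control siRNA. Summed over the 4 platform genes, the POH1 siRNA library held 249 TPM and the control siRNA library 300.2 TPM. The 3 genes of the catalytic module went the other way, with sums of 199.5 TPM with POH1 siRNA and 169.7 TPM with control siRNA. The activators, which bring substrates to the complex, lay close to their controls: CDC20 was at 194 TPM with POH1 siRNA and 188 TPM with control siRNA, and FZR1 (CDH1) was at 53.3 TPM with POH1 siRNA and 46.9 TPM with control siRNA. The median over the 11 subunits was -0.35, and that over the 48 other genes compared was 0.0014.

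Copies and overlaps touch a few of these values. A named pseudogene of CDC26 was at 5.75 TPM with POH1 siRNA and 13.5 TPM with control siRNA, and the sum of both genes differed by -1.06. For CDC27, 3 named pseudogenes held 0.476 TPM with POH1 siRNA and 0.0737 TPM with control siRNA, and the sum differed by -0.84. Of the 14 genes past 1.5-fold, 5 overlap a gene of 1 TPM or more on the opposite strand, and none shares same-strand exon sequence with one. Besides CENPO these were CCNA2 (with EXOSC9), CDC25C (with FAM53C), ANAPC10 (with ABCE1) and CDC26 (with PRPF4). EXOSC9 was at 11.8 TPM with POH1 siRNA and 17.7 TPM with control siRNA, and ABCE1 was at 7.04 TPM with POH1 siRNA and 10.6 TPM with control siRNA. FAM53C was at 23.8 TPM with POH1 siRNA and 19.8 TPM with control siRNA, and PRPF4 at 25.2 TPM with POH1 siRNA and 24.9 TPM with control siRNA. The values of all 5 are uncertain for this reason. Of all 60 genes, 16 overlap such a gene on the opposite strand. CENPA shares 138 exon bases with SLC35F6 on the same strand, and SLC35F6 had a log2 difference of 0.28.

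The differences moved with the GC content of the transcripts, in these genes and in all genes. Across the 59 genes, Spearman's rho between GC content and log2 difference was 0.36, and across 14983 genes it was 0.42; genes of the same 2 libraries are not independent replicates. None of the 12 genes above 55% GC was past 1.5-fold, where 14.6% of all genes of that class were higher and 1.82% were lower. The median of the 12 genes was 0.19, against 0.28 for all genes of that class. Of the 4 genes above 50% and up to 55% GC, 1 was higher and 1 was lower. In that class 11.1% of all genes were higher and 4.90% were lower. Of the 12 genes up to 40% GC, 0 were higher and 2 were lower, where 4.19% of all genes of that class were higher and 20.9% were lower. Of the 18 genes above 40% and up to 45% GC, 1 was higher and 3 were lower, where 5.12% of all genes of the class were higher and 19.8% were lower. The median of the 18 genes was -0.17, which was also -0.17 for all genes of the class. Of the 13 genes above 45% and up to 50% GC, 0 were higher and 6 were lower, namely CCNB2, CDC25C, CENPW, PTTG1, ANAPC7 and CDC26. The median of the 13 genes was -0.35, against 0.0035 for all genes of that GC content, of which 8.58% were higher and 10.4% were lower.

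With the running median of all genes at each GC content taken out, 5 of the 59 genes were higher and 6 were lower, where 12.6% of all genes were higher and 5.2% were lower. The median of the 59 genes was then 0.074, against 0.15 for all genes. CENPH (2.55) and CENPO (1.35) stayed higher, and ANAPC1 (0.77), CENPA (0.66) and BUB3 (0.62) passed the limit. The 6 lower genes were CDC25C (-1.01), CCNB2 (-0.85), CDC26 (-0.78), CDC25A (-0.72), SPC24 (-0.68) and ANAPC7 (-0.59). TOP2A (-0.55), CDC27 (-0.54), PTTG1 (-0.44), CENPW (-0.36), CCNA2 (-0.32), CDC16 (-0.30) and ANAPC10 (-0.20) no longer reached 1.5-fold. The part of GC content in these differences was not tested.

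**Figure D3:**
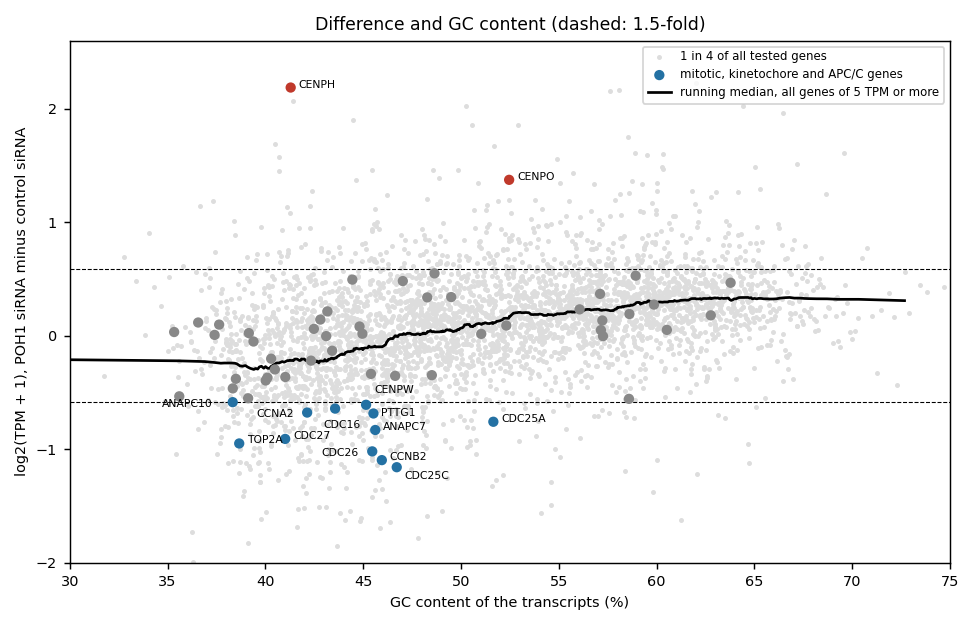
Log2 difference, POH1 siRNA minus control siRNA, against the median GC content of a gene's transcripts in percent; small grey points are 1 in 4 of all genes, large points are the 59 genes (red higher, blue lower, grey within 1.5-fold), the black line is the running median of all genes and dashed lines mark 1.5-fold; genes beyond the axes are not shown. All 12 blue points lie under 52% GC, and CENPH stands at 41.3% GC with a difference of 2.19.

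In RefSeq's promoter windows, from 250 bases before to 50 bases after a transcription start, 50 of the 60 genes had at least 1 window. TTTGAA or TTTAAA occurred in a window of 33 of these 50 genes (66%), against 27.9% of all 27305 genes with a window. CCAAT occurred for 36 of 50 (72%), against 39.7% of all genes. Among the 11 APC/C subunits 4 held TTTGAA or TTTAAA, and among the 39 other genes 29 did. The 33 genes that held TTTGAA or TTTAAA and were compared had a median log2 difference of 0.0068, with 1 higher and 7 lower. The 16 that lacked both had a median of -0.36, with 0 higher and 5 lower. Over all genes with a window and compared, the 2139 that held such letters had a median of 0.079, with 178 higher and 233 lower. The 8325 that lacked them had a median of 0.13, with 785 higher and 646 lower. Among the promoters printed above, the windows of CCNB2, CCNB1 and PLK1 all carry such a match about 30 bases before the start, beside differences of -1.10, 0.017 and 0.13.

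A wider list of 79 genes of the same processes, none of them among the 60, was read against the same shares of all genes. Of 76 genes compared, 2 were higher (2.63%) and 12 were lower (15.8%), with a median of -0.087. Condensin I held a gene on either side: NCAPD2 was at 79.4 TPM with POH1 siRNA and 45.9 TPM with control siRNA, and NCAPG was at 2.79 TPM with POH1 siRNA and 7.24 TPM with control siRNA. NCAPH, the third subunit specific to condensin I, was at 59.1 TPM with POH1 siRNA and 62.9 TPM with control siRNA. Of cohesin genes, SMC3 was lower, at 4.39 TPM with POH1 siRNA and 9.09 TPM with control siRNA, and so was PDS5B, at 1.65 TPM with POH1 siRNA and 3.20 TPM with control siRNA. Spindle and cytokinesis genes held 7 of the 12 lower genes: BORA (an activator of PLK1 through AURKA), CEP55, HMMR, KIF15, NEK2, CKAP2 and ANLN, with differences from -0.81 to -0.62. That was 36.8% of the 19 spindle and cytokinesis genes compared, where 8.88% of all genes were lower. After GC adjustment 0 of the 19 were lower, where 5.2% of all genes were. SPDL1, which brings dynein to kinetochores, was lower at 9.38 TPM with POH1 siRNA and 17.1 TPM with control siRNA. With ITGB3BP and DSN1, given above, these are all 14.

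The transcription factors that drive mitotic genes lay within 1.5-fold. FOXM1 was at 77.5 TPM with POH1 siRNA and 72.6 TPM with control siRNA, and MYBL2 (B-MYB) was at 137 TPM with POH1 siRNA and 118 TPM with control siRNA. The MuvB subunits LIN9, LIN37, LIN52 and LIN54 differed by -0.12 to 0.38. UBE2C and UBE2S, the conjugating enzymes of the APC/C, were at 407 and 265 TPM with POH1 siRNA, and at 389 and 230.1 TPM with control siRNA. After GC adjustment, 6 of the 76 genes were higher and 1, NCAPG, was lower, where 12.6% of all genes were higher and 5.2% were lower. DNA replication genes, set beside them for comparison, numbered 32 compared, of which 0 were higher and 6 were lower without GC adjustment, against 10.2% and 8.88% of all genes, and their median was -0.12. After GC adjustment 1 was higher and 5 were lower.

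**Figure D4:**
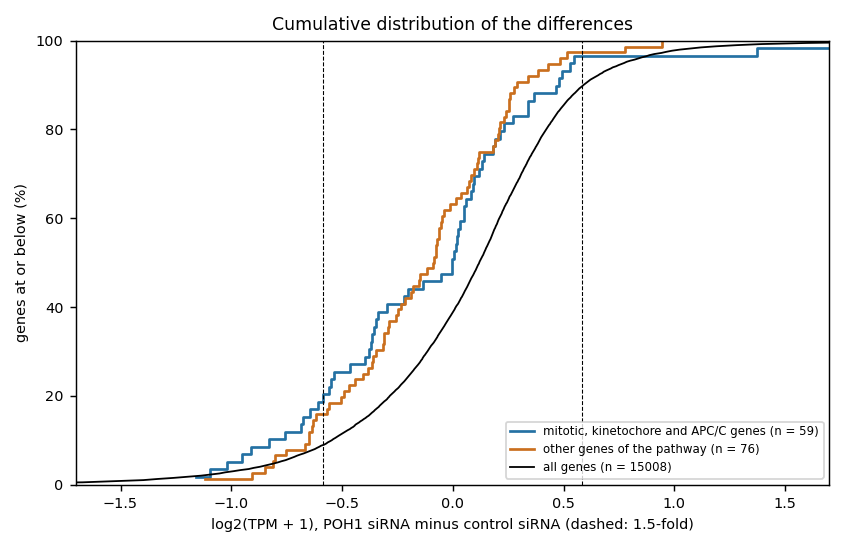
Share of genes at or below each log2 difference, POH1 siRNA minus control siRNA, for the 59 genes described, 76 other genes of the same processes and all 15008 genes; dashed lines mark 1.5-fold and the axis ends before CENPH. The curves of both lists lie left of that of all genes over most of the range, with medians of -0.0040 and -0.087 against 0.12.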

How the data were processed

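Per the labels' protocols, total RNA was isolated by Trizol and an Illumina mRNA kit gave the libraries. Per the submitters' processing notes, CASAVA, HISAT2 and build hg19 were used; the sources used here name no quantifier, annotation, version or strand setting. The authors deposited TPM per Ensembl gene, summing to 999968 TPM with POH1 siRNA and 999955 TPM with control siRNA. TPM is relative and keeps no depth, so no counting interval is given.

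Symbols were found for 57392 of 58174 identifiers. GC content, pseudogenes and overlaps came from those symbols and GENCODE release 29 (GRCh38, not hg19, so no gene coordinates are printed). Differences are log2(TPM + 1) over 15008 genes averaging at least 1 TPM; folds are ratios of deposited TPM. GC adjustment subtracted a running median over 501 genes of 5 TPM or more and added back their median. Calculations used Python 3.11.15 and pandas 2.3.3 and were tested on simulated data. The genes and lists were chosen with earlier results of these data known. Every member could be named, pathway genes only past 1.5-fold; FOXM1, MYBL2, UBE2C, UBE2S, the LIN genes, complex partners, CENPH's neighbours and overlapping genes within 1.5-fold were named after their values were seen. The processing alternatives tried are given with the closing section.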

Additional observations from a re-analysis of the deposited data

How the results depend on the processing

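The alternatives were other pseudocounts, filters, scalings, limits of fold, GC adjustment, and sums with genes sharing exons. The count of 12 lower genes (8.88% of all genes were lower) became 7 with a pseudocount of 5 TPM (4.45% of all genes), 3 at 2-fold (2.93%) and 6 after GC adjustment (5.2%). The count of 2 higher genes (10.2%), CENPH among them by choice, became 5 after GC adjustment (12.6%). It stayed at 2 with a pseudocount of 5 TPM (4.24% of all genes) and at 2-fold (2.15%). With the other alternatives there were 2 higher and 12 to 15 lower. Of all genes, 6.40% to 14.4% were then higher and 6.24% to 12.3% were lower. Scaling to a median log2 ratio of 0 removes 0.14 from all log2 ratios, and the medians became -0.14 for all members compared, -0.48 for the APC/C subunits and -0.13 for the other members; with trimmed mean scaling they were -0.12, -0.47 and -0.12. The median of all genes was 0.000088 and 0.0098 under these 2 scalings. The APC/C median was -0.47 with a filter at 5 TPM and -0.20 after GC adjustment. CENPH ranged from 1.45 with a pseudocount of 5 TPM to 2.55 after GC adjustment. Of the 14 genes past 1.5-fold, 6 were past it in the same direction under all 9 alternatives that gave single values, namely CENPH, CENPO, CCNB2, CDC25C, CDC26 and ANAPC7. The cause was not tested. No gene past 1.5-fold changed direction. The other filters and the sums with genes sharing exons leave the values of these 14 genes unchanged by construction. Sums with genes on the opposite strand were not among the 9 alternatives. Of the genes kept under all 9, CDC25C summed with FAM53C differed by -0.29 and CDC26 summed with PRPF4 by -0.62. CENPO differed by 1.14 when summed with ADCY3 and by 0.48 when summed with PTRHD1. No paired analysis was possible because each group held 1 library. The unknown depth most limits genes near 1 TPM, such as TTK, CENPC and KNL1.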

Other observations

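CDK7, the kinase that activates CDK1 by phosphorylating its activation loop, lies second from CENPH among protein-coding genes in RefSeq's order and was looked at only for that reason. It was at 12.7 TPM in the POH1 siRNA library and 26.7 TPM in the control siRNA library, a log2 difference of -1.01. Of the genes that overlap members on the opposite strand, PRIMPOL, which overlaps CENPU and encodes a primase-polymerase, was at 1.30 TPM with POH1 siRNA and 5.49 TPM with control siRNA. NUTF2, a nuclear import factor gene that overlaps CENPT, was at 113 TPM with POH1 siRNA and 206 TPM with control siRNA (-0.86), while CENPT differed by 0.53.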
